A study of Mus musculus with 9 samples.

Results

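Gene expression was compared between the intermediate and the ventral part of the mouse spinal cord. The members of the comparison were the 6 arrays titled intermediate (3) or ventral (3) spinal cord, of 9 arrays in all, and the genes of every probe set that carries a single gene symbol; the 3 arrays of dorsal pieces were left out. Every animal was at postnatal day 6 and had the genotype GAD65-GFP, in which the promoter of Gad2, the gene of the GABA-producing enzyme GAD65, drives green fluorescent protein, and the titles give each of 3 animals 1 piece of each region. The labels name no treatment and no animals without the transgene. They mention no sorting of fluorescent cells, do not say where the cord was cut between the regions and give no cord level. In such whole pieces, fewer cells of a type and less RNA per cell cannot be told apart.

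The spinal cord is built in layers from back to belly. Dorsal horn neurons receive touch, pain, itch and temperature input, the intermediate zone holds interneurons that relay and pattern this input toward movement, and the ventral horn holds the motor neurons, whose axons leave through the ventral roots to muscle. Inhibitory interneurons use GABA, glycine or both, and excitatory interneurons use glutamate. The surrounding white matter holds axons, oligodendrocytes and astrocytes, the cord is wrapped in meninges, and Schwann cells take over the wrapping of axons where roots leave the cord. At postnatal day 6 myelination is under way and glia still divide. The study's title names genes linked to dystonia, a movement disorder of sustained or twisting muscle contractions, and the GABAergic interneurons of the cord. The comparison of adjoining regions shows which transcripts set the intermediate zone apart from the ventral cord.

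Each array gave 45037 probe set values, which ran from 2.146 to 16.27 over the table and were taken as log2. From 35.97% to 36.21% of the probe sets of an array lay at the lowest value or within 0.01 of it, which is the floor here, and the median of an array was between 3.66 and 3.703. Of 18193 genes with a probe set of their own, 11575 had a mean of at least 1 log2 unit above the floor and were tested, and 4771 stood at the floor on all 6 arrays. The floor is no proof of absence: the haemoglobin genes Hba-a1 and Hba-a2, which any blood in the tissue would bring, also stood there on all 6 arrays. Across the 11575 tested genes, arrays of the same region correlated with r from 0.997 to 0.998 (6 pairs of arrays). Arrays of different regions correlated with r from 0.9564 to 0.9627 (9 pairs). Where a region's mean lies less than 1 unit above the floor, the size of a fold depends in part on the floor. In 902 tested genes, 214 of them called, a region held 1 identical value on its 3 arrays above the floor. No label says whether such a repeated value is a limit of the probe set. Folds against such a value may be bounds, and their SE may be too small. Values below are given for animals 1, 2 and 3 in that order. A difference is the intermediate minus the ventral log2 level, averaged over the 3 animals, with its standard error (SE), and adjusted p-values are those of limma's moderated test with the animal as a block, after Benjamini-Hochberg adjustment over the 11575 genes.

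At an adjusted p under 0.05, 6724 of the 11575 genes differed between the regions (58.1%), 3254 higher in the intermediate pieces (28.1%) and 3470 lower (30%). Every one of these genes differed in the same direction in all 3 animals. With 3 animals as blocks this threshold cannot be passed otherwise, so the shared direction adds no evidence of its own. The values of the regions did not overlap for 6599 of the called genes, and over all tested genes for 67.8%. Most differences were modest, with a median size of 0.543 among the genes called and 0.1 for the smallest. A difference of at least 2-fold was reached by 1320 called genes (11.4% of those tested), 689 higher and 631 lower. At least 8-fold differences were found for 28 genes higher in the intermediate pieces and 32 lower. The median over all tested genes was -0.0053, but the arrays were deposited with nearly equal medians, so this value cannot show whether a region was shifted as a whole. With so many genes called, a list is described below by the share of its members that moved in each direction and by its median, to be read against these background figures. The lists were chosen with earlier results of these data known, so their counts are descriptive. Without animal 1 the count of called genes was 4499, against 6724 with all 3. Of the listed or named genes, 118, 88 and 73 lost a call without animal 1, 2 or 3. The counts of the lists therefore fall with fewer animals, also where no lost call is named below.

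**Figure D1:**
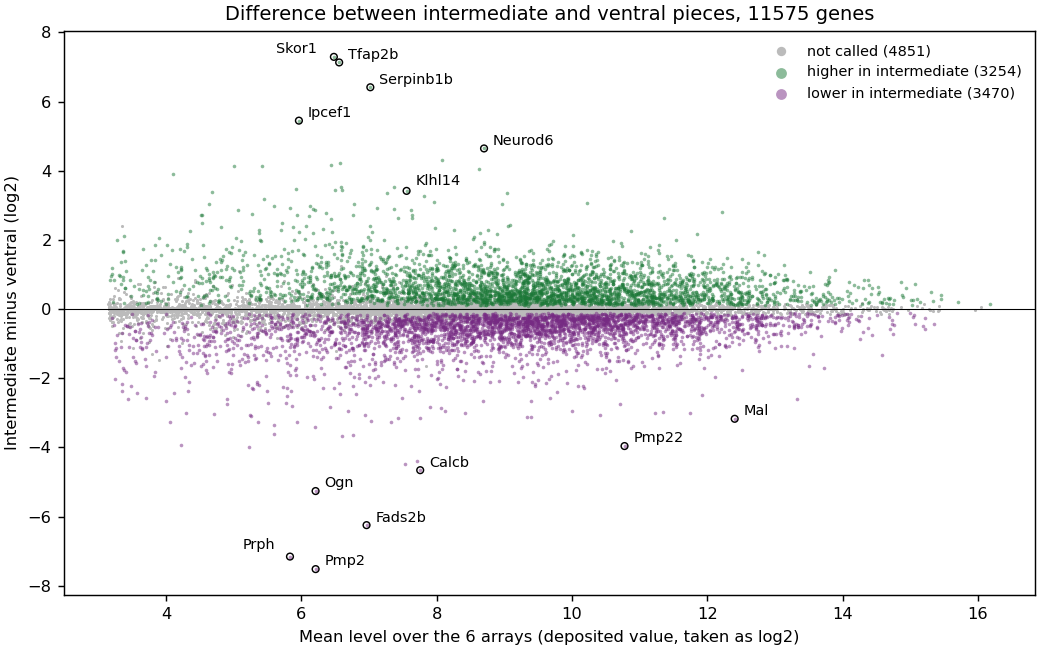
Each point is 1 of the 11575 tested genes, with its mean level over the 6 arrays (deposited value, taken as log2) on the x axis and its difference, intermediate minus ventral (log2), on the y axis; coloured points have an adjusted p under 0.05. Differences spread to both sides of 0 at all levels, with Pmp2 at -7.52, Skor1 at 7.29 and Prph at -7.15 among the farthest.

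The largest differences were ranked among called genes above the floor on all 6 arrays. The 12 genes leading toward the intermediate pieces included several transcription factors of dorsal horn neurons. Skor1, a transcriptional corepressor of dorsal interneurons that partners with Lbx1, measured 10.18, 10.22 and 9.98 in the intermediate and 2.56, 2.96 and 2.98 in the ventral pieces. The intermediate arrays all lay near 10 and the ventral arrays within 1 unit of the floor, a difference of 7.29 ± 0.14, or 157-fold (adjusted p = 0.00112). Tfap2b, an AP-2 transcription factor of inhibitory dorsal interneurons, measured 10.23, 9.95 and 10.20 in the intermediate and 2.63, 3.17 and 3.17 in the ventral pieces, again with no overlap and a 140-fold difference (7.13 ± 0.19; adjusted p = 0.00112). Serpinb1b, a serine protease inhibitor, measured 10.16, 10.62 and 9.90 in the intermediate and 3.70, 3.58 and 4.15 in the ventral pieces (85.4-fold). Ipcef1, which interacts with cytohesin exchange factors, measured 8.75, 8.80 and 8.52 in the intermediate and 2.91, 3.05 and 3.75 in the ventral pieces (43.7-fold). The neuronal transcription factor Neurod6 was 25-fold higher, from 6.52, 6.47 and 6.15 in the ventral to 11.10, 10.93 and 11.05 in the intermediate pieces.

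Bcl11b, a zinc-finger factor of postmitotic neurons, stood at 10.25, 10.25 and 10.21 in the intermediate pieces, while its ventral levels of 6.50, 6.17 and 5.08 spread more widely (20-fold). Mab21l1, a gene of the male-abnormal-21 family, measured 8.79, 8.81 and 8.47 in the intermediate and 4.66, 4.66 and 4.08 in the ventral pieces (18.7-fold). Grp, the gastrin-releasing peptide that carries itch signals in the dorsal horn, measured 8.68, 8.72 and 8.15 in the intermediate and 3.87, 4.61 and 4.61 in the ventral pieces (17.8-fold). In all 3 genes the gap between the regions was wider than the range within either. Ebf3, a helix-loop-helix factor of postmitotic neurons, was at 10.68, 10.83 and 10.42 in the intermediate and 6.38, 6.83 and 6.61 in the ventral pieces (16.5-fold). Pou4f1, the homeodomain factor Brn3a, was at 9.34, 9.23 and 8.84 in the intermediate and 5.19, 6.17 and 5.41 in the ventral pieces (11.7-fold). Arhgap15, a GTPase-activating protein for Rac, was 17.5-fold higher, and the uncharacterised C130021I20Rik 17.6-fold, the latter with 3 identical ventral values of 3.36. For each of these 12 genes every intermediate value was above every ventral value, and the adjusted p lay between 0.00112 and 0.00237. Both follow largely from picking called genes with large differences. Of all tested genes, 67.8% were also separated in 1 direction or the other. The ventral means of Skor1, Tfap2b and Arhgap15 lay less than 1 unit above the floor, which sets their folds in part. Lhx9, a LIM homeodomain factor of dorsal commissural neurons, was at the floor on all 3 ventral arrays and at 6.47, 6.02 and 5.67 in the intermediate pieces, which makes it at least 15-fold higher there (adjusted p = 0.00125).

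By the same ranking, the 12 genes with the largest differences toward the ventral pieces included genes of motor neurons, connective tissue and myelin. Pmp2, which stood at the floor on 1 intermediate array, was outside the ranking although its difference, -7.52, was larger. Prph, which encodes the intermediate filament peripherin of motor and sensory neurons with peripheral axons, measured 2.25, 2.32 and 2.19 in the intermediate and 9.53, 9.56 and 9.13 in the ventral pieces. The intermediate values lay just above the floor, so the fitted difference of -7.15 ± 0.09 (142-fold; adjusted p = 0.00112) is set in part by the floor. Calcb, the beta form of calcitonin gene-related peptide, which motor neurons make, measured 5.39, 5.70 and 5.19 in the intermediate and 10.23, 10.18 and 9.85 in the ventral pieces (25.2-fold lower in the intermediate pieces). Connective-tissue genes followed with no overlap between regions, a separation found in 67.8% of all tested genes. The proteoglycan Ogn was at 3.24, 4.04 and 3.47 in the intermediate and 9.24, 9.02 and 8.26 in the ventral pieces (38.3-fold lower). The collagen chain Col1a1 was at 5.29, 5.97 and 4.64 in the intermediate and 9.87, 10.01 and 9.43 in the ventral pieces (22.2-fold lower), and the proteoglycan Dcn was 21.2-fold lower. The summed level of the meningeal and fibroblast list, to which these belong, was 8530 to 10400 in the intermediate and 29300 to 37000 in the ventral pieces.

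Myelin genes made up another part of the 12. Hapln2, a link protein of the nodes of Ranvier, measured 3.12, 3.13 and 3.47 in the intermediate and 6.51, 7.24 and 7.93 in the ventral pieces. Pmp22, a protein of peripheral myelin, measured 8.73, 9.37 and 8.30 in the intermediate and 12.99, 12.83 and 12.45 in the ventral pieces. Gjb1 codes for connexin 32, a gap junction protein of myelinating cells, and stood at 2.25, 2.25 and 2.27 in the intermediate and 6.47, 5.99 and 6.11 in the ventral pieces. Gjb1 was just above the floor in all intermediate pieces. The remaining genes were Fads2b, of the fatty acid desaturase family, at 3.38, 4.25 and 3.90 in the intermediate and 10.09, 9.95 and 10.22 in the ventral pieces (75.8-fold lower), and the small heat shock protein gene Hspb8 (12.6-fold), Smco3, which codes for a small membrane protein (12.5-fold), and Mrc1, the mannose receptor of macrophages, at 3.65, 3.99 and 3.72 in the intermediate and 7.69, 7.49 and 7.02 in the ventral pieces (12.2-fold). Nkx6-1, a homeodomain factor of ventral progenitors and motor neurons, was at the floor in all intermediate pieces and at 5.12, 4.90 and 4.20 in the ventral ones, so it was at least 6.02-fold lower in the intermediate pieces (adjusted p = 0.00293).

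**Figure D2:**
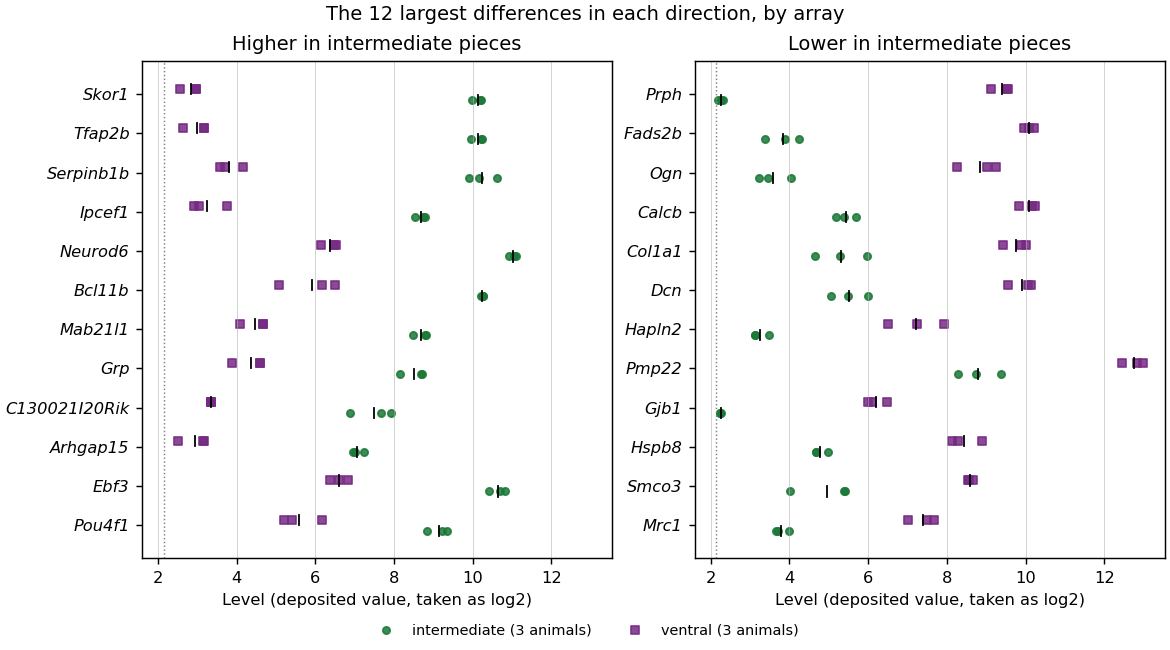
Levels (deposited value, taken as log2) of the 12 genes with the largest difference in each direction, with green circles for the 3 intermediate and purple squares for the 3 ventral arrays, a black tick for each group's mean and a dotted line at the floor. In all 24 genes the circles and squares are fully separated, as they are in 67.8% of all tested genes. Prph and Gjb1 lie close to the floor in the intermediate pieces.

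Among 35 tested transcription factors of the dorsal horn, 25 were higher in the intermediate pieces and 2 lower, with a median difference of 1.34. Beyond the factors already named, Zic1, a zinc-finger factor of the dorsal neural tube, was high in both regions, at 13.75, 13.71 and 13.43 in the intermediate and 10.80, 11.07 and 10.59 in the ventral pieces, and was 7.03-fold higher in the intermediate pieces. Lmx1b, which excitatory dorsal neurons need, measured 4.54, 4.39 and 3.70 in the intermediate pieces and 2.53 on every ventral array (difference 1.68 ± 0.20, adjusted p = 0.00657), a call lost without animal 2 (adjusted p = 0.0525). Its usual partner Tlx3 was at the floor on all 6 arrays, as was Ptf1a, the factor that commits dorsal cells to an inhibitory fate. Lhx1, a LIM factor of dorsal and ventral interneurons, was 2.54-fold higher (1.34 ± 0.09; adjusted p = 0.00203).

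The members that were lower were Nfia, a factor of later-born neurons and of glia, with a difference of -0.50 ± 0.04, and Rora, an orphan nuclear receptor, with -0.17 ± 0.04. Rora lost its call without animal 1, 2 or 3 (adjusted p = 0.127, 0.0552 and 0.0987), while Nfia kept its call with any 1 animal left out. The list's lower count was 1 without animal 1 or animal 3 and 2 without animal 2, where Maf (named after its values were seen) was called in place of Rora. Isl1, which is made both by dorsal excitatory neurons and by motor neurons, measured 7.47, 6.67 and 6.67 in the intermediate and 7.21, 7.05 and 6.50 in the ventral pieces; its values overlapped and the difference of 0.02 ± 0.15 did not pass the test (adjusted p = 0.931).

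Of 11 tested transcription factors of ventral interneurons, 2 were higher in the intermediate pieces (Lhx1 and Shox2) and 6 lower, with a median of -0.726. Shox2, a homeodomain factor of excitatory rhythm-related interneurons, measured 5.55, 5.48 and 5.69 in the intermediate and 4.62, 4.62 and 4.69 in the ventral pieces (0.93 ± 0.04; adjusted p = 0.00121). Onecut2, a cut-homeodomain factor of motor neurons and ventral interneurons, measured 6.06, 6.01 and 6.36 in the intermediate and 8.10, 8.36 and 8.32 in the ventral pieces and was 4.33-fold lower in the intermediate pieces (adjusted p = 0.00119). Sp8, a zinc-finger factor, measured 2.61, 2.61 and 3.09 in the intermediate and 4.31, 4.75 and 3.94 in the ventral pieces and lost its call without animal 1 or 2 (adjusted p = 0.112 and 0.0723). Some further members were chosen after their values were seen. Nkx2-2, a homeodomain factor of the most ventral progenitors that oligodendrocytes also make, was 2.54-fold lower, and Pax6, a paired-box factor of neural progenitors, 1.65-fold. Foxp2, a forkhead factor of inhibitory ventral interneurons, measured 7.13, 7.18 and 7.80 in the intermediate and 8.34, 8.12 and 8.22 in the ventral pieces, a difference of -0.86 ± 0.18 that lost its call without animal 1 or 2 (adjusted p = 0.098 and 0.128).

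Most cardinal ventral factors could not be compared. Evx1, Evx2, En1, Gata3, Sox14 and Onecut1, which mark commissural, inhibitory or relay interneuron classes, stood at the floor on all 6 arrays. Tal1, a factor of such a class (chosen after its values were seen), was at 3.48, 3.48 and 3.52 in the intermediate and 4.36, 4.25 and 3.68 in the ventral pieces and did not pass the test (adjusted p = 0.0544).

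Motor neuron identity genes were mostly lower in the intermediate pieces: of 20 tested, 13 were lower and 1 was higher, with a median of -0.88. The share called was 70%, against 58.1% over all tested genes, of which 30% were lower. Prph and Calcb led the list. Ahnak2, a large scaffold protein gene, measured 5.53, 5.24 and 5.27 in the intermediate and 7.89, 8.001 and 7.47 in the ventral pieces (5.42-fold lower; adjusted p = 0.00148). Ret, the receptor for glial-derived neurotrophic factor, was lower (-1.04 ± 0.06). Chodl, a lectin-like membrane protein of fast motor neurons (chosen after its values were seen), measured 9.15, 8.93 and 9.07 in the intermediate and 11.51, 11.36 and 11.08 in the ventral pieces (4.81-fold lower). The member that was higher was Cpne4, a calcium-binding copine, at 3.88, 3.88 and 3.73 in the intermediate and 3.01, 2.70 and 3.01 in the ventral pieces. Its call was lost without animal 1 (adjusted p = 0.0508). Lower members, named after their values were seen, also lost calls. These were Anxa4 (without animal 1), Gfra1 (without animal 1 or 2), Nrp2 (without animal 2) and Pou3f1 (without animal 1 or 3).

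The defining motor neuron genes did not register. Chat and Slc18a3, which make and load acetylcholine, and Slc5a7, which takes up choline, stood at the floor on all 6 arrays, as did Lhx3 and Vipr2. Mnx1, the homeodomain factor that marks motor neurons, was at the floor in the intermediate pieces and at 2.35, 3.19 and 2.30 in the ventral pieces, too low to be tested. The summed linear level of the motor neuron list was 6390 to 6660 in the intermediate and 11700 to 13900 in the ventral pieces. Genes of Schwann cells, which ensheathe the motor axons in the roots, were higher in the same ventral pieces (8 of 11 tested called, summed level 9950 to 13000 against 1670 to 2130), and their part in the motor neuron result was not tested.

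Cholinergic synapse genes apart from those markers went the other way. Of 8 tested, 6 were higher in the intermediate pieces and 2 lower, with a median of 0.729. The nicotinic receptor subunits Chrnb2 (1.46 ± 0.14), Chrna7 (1.28 ± 0.09) and Chrna3 (1.00 ± 0.08) were higher, the first at 8.09, 7.77 and 8.13 in the intermediate and 6.47, 6.66 and 6.48 in the ventral pieces. Prima1, which anchors acetylcholinesterase in membranes, was lower (-1.50 ± 0.10; adjusted p = 0.00198), and so was the subunit Chrna5 (-1.38 ± 0.25), whose call was lost without animal 2 or 3 (adjusted p = 0.0606 and 0.0777), leaving 1 lower member. Higher members also lost calls, Ache without animal 1 or 3 and Chrna4 without animal 2 or 3 (both named after their values were seen).

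Neurofilament and large-axon genes split: of 12 tested, 5 were higher and 6 lower, with a median of -0.0819, and without animal 1 the counts were 3 and 3. The heavy and medium neurofilament chains were lower, Nefh (-1.09 ± 0.07) with levels of 12.23, 12.09 and 12.29 in the intermediate and 13.33, 13.31 and 13.25 in the ventral pieces, and Nefm (-0.66 ± 0.04). The light chain Nefl measured 14.25, 14.18 and 14.33 in the intermediate and 14.55, 14.54 and 14.49 in the ventral pieces, and its difference of -0.27 ± 0.05 lost its call without animal 1 or 2 (adjusted p = 0.119 and 0.0876). The other neuronal filament, alpha-internexin (Ina), was higher (0.44 ± 0.04; adjusted p = 0.00404), as were the fast potassium channel Kcnc1 (0.84 ± 0.04) and the sodium channel Scn8a (0.38 ± 0.03). Pvalb, which codes for parvalbumin, was near the floor on all 6 arrays.

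**Figure D3:**
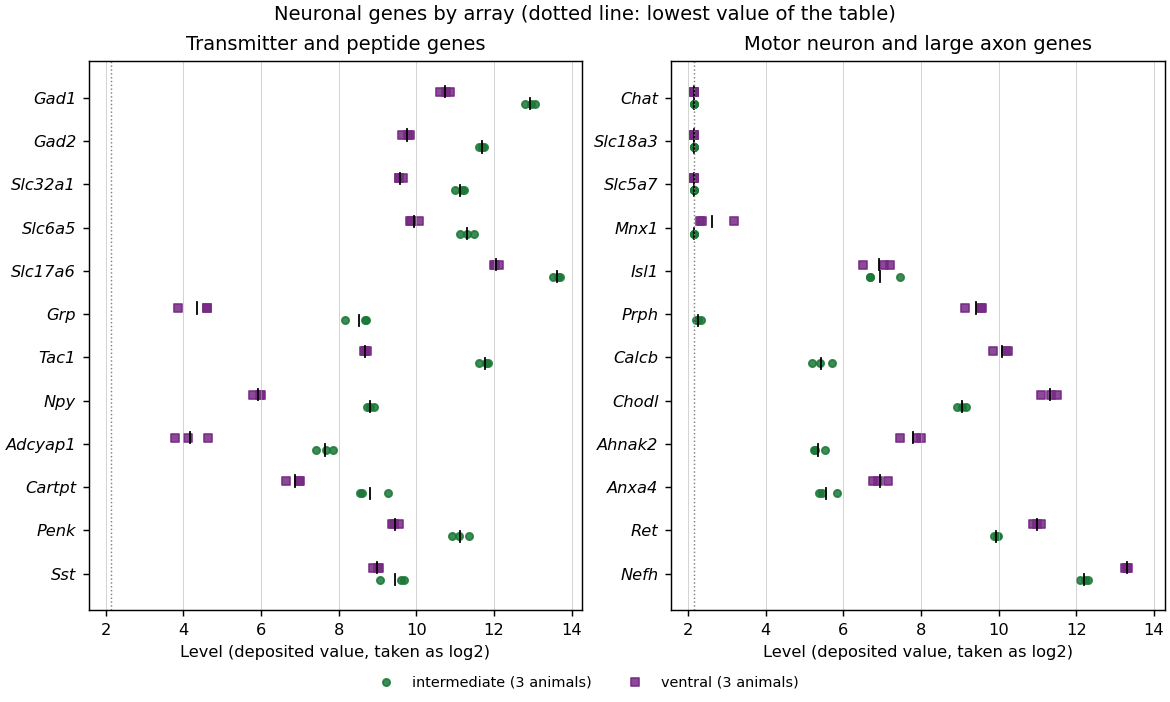
Levels (deposited value, taken as log2) of neuronal genes in each array, with green circles for intermediate and purple squares for ventral pieces, a black tick for each group's mean and a dotted line at the floor. Transmitter and peptide genes lie to the right in the intermediate pieces, Prph and Calcb lie to the right in the ventral pieces, and Chat sits on the floor throughout.

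Genes of inhibitory transmission were higher in the intermediate pieces. Gad1, the main GABA-synthesising enzyme, measured 12.96, 13.05 and 12.80 in the intermediate and 10.60, 10.77 and 10.87 in the ventral pieces, a 4.55-fold difference (2.19 ± 0.10; adjusted p = 0.00128). Gad2, which codes for GAD65 itself, measured 11.71, 11.62 and 11.73 in the intermediate and 9.64, 9.85 and 9.80 in the ventral pieces (3.8-fold). Slc32a1, the transporter that loads GABA and glycine into vesicles, measured 11.17, 11.003 and 11.22 in the intermediate and 9.54, 9.54 and 9.66 in the ventral pieces (2.92-fold). No ventral value reached an intermediate one for these 3 genes, and the regions were separate in 67.8% of all tested genes. Of the 8 GABAergic neuron genes tested, 6 were higher and 1 lower, with a median of 0.49. The lower one, Slc6a11, a GABA transporter of astrocytes, differed by -0.22 ± 0.03 and lost its call without animal 1 or 3 (adjusted p = 0.0812 and 0.0668).

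Glycine genes went both ways. Slc6a5, the neuronal glycine transporter that marks glycinergic neurons, measured 11.31, 11.13 and 11.49 in the intermediate and 9.88, 9.84 and 10.08 in the ventral pieces and was 2.6-fold higher in the intermediate pieces (adjusted p = 0.00112). The glycine receptor subunit Glra3 was 2.76-fold higher. Lower in the intermediate pieces were Slc6a9, the glial glycine transporter (-0.49 ± 0.07), and the glycine-metabolising genes Shmt2 (-0.53 ± 0.05) and Gcsh (-0.32 ± 0.03). Slc6a9 lost its call without animal 1 or 3 (adjusted p = 0.0573 and 0.0506). In all, 7 of 11 tested genes were higher and 4 lower, with a median of 0.314; without animal 1 or animal 3, 2 were lower. The brightest probe set of Gphn, the scaffold of glycine and GABA-A receptors, was also among the higher genes, while another of its probe sets differed by -0.563.

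Slc17a6, the vesicular glutamate transporter of spinal excitatory neurons, measured 13.69, 13.53 and 13.64 in the intermediate and 12.02, 12.01 and 12.14 in the ventral pieces, a 2.95-fold difference (1.56 ± 0.05; adjusted p = 0.00112) of about the size seen for Slc32a1. Slc17a7, the other main vesicular glutamate transporter, was at the floor on all 6 arrays. The neuronal glutamate transporter Slc1a6 (1.28 ± 0.07) and the glutamine transporter Slc38a1 (0.67 ± 0.03) were higher. The astrocyte glutamate transporter Slc1a3 (-0.48 ± 0.03) and the glutamine transporter Slc38a2 (-0.37 ± 0.03) were lower. Slc1a2, the other main astrocyte transporter, differed by only -0.19 ± 0.04 and lost its call without animal 1, 2 or 3 (adjusted p = 0.0583, 0.0968 and 0.0959). This made 3 of 8 glutamatergic genes higher and 3 lower, with a median of 0.0666 (75% called, against 58.1% over all tested genes).

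Neuropeptide genes were higher in the intermediate pieces in 18 of 21 cases tested and lower in 1, with a median of 1.04. Tac1, the precursor of substance P, measured 11.84, 11.81 and 11.63 in the intermediate and 8.67, 8.74 and 8.65 in the ventral pieces (8.4-fold; adjusted p = 0.00112). Adcyap1, the precursor of the peptide PACAP, measured 7.68, 7.87 and 7.42 in the intermediate and 4.11, 3.79 and 4.65 in the ventral pieces (11.1-fold), and Grp is given above. The 1 lower peptide gene was Calcb. Tac2, the neurokinin B gene, was above the floor on 1 intermediate array alone and was not tested. Further members, chosen after their values were seen, were neuropeptide Y (Npy, 7.41-fold), corticotropin-releasing hormone (Crh, 4.92-fold), the CART peptide (Cartpt, 3.8-fold) and enkephalin (Penk, 3.2-fold, at 11.10, 10.93 and 11.36 in the intermediate and 9.43, 9.38 and 9.54 in the ventral pieces). Somatostatin (Sst) was close to the test's limit, at 9.61, 9.69 and 9.07 in the intermediate and 9.05, 9.02 and 8.90 in the ventral pieces with a difference of 0.47 ± 0.12, and lost its call without animal 1 or 2 (adjusted p = 0.186 and 0.153).

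Receptors for these peptides were less uniform, with 8 of 15 tested higher, 4 lower and a median of 0.388. Npy5r, a receptor of neuropeptide Y, measured 7.38, 7.55 and 7.58 in the intermediate and 5.73, 5.67 and 5.72 in the ventral pieces and was 3.47-fold higher. Tacr3, the neurokinin B receptor, measured 9.90, 9.73 and 9.60 in the intermediate and 7.82, 7.36 and 7.46 in the ventral pieces (4.59-fold), whereas the substance P receptor Tacr1 was at the floor on all 6 arrays. Oprk1, the kappa opioid receptor, was higher (1.32 ± 0.22), a call lost without animal 2 (adjusted p = 0.0771). Ntsr2, a neurotensin receptor of astrocytes, was lower at 10.08, 9.93 and 10.23 in the intermediate and 11.66, 11.57 and 11.49 in the ventral pieces, and so were the 2 parts of the receptor for calcitonin gene-related peptide, Calcrl (-0.66 ± 0.05) and Ramp1 (-0.58 ± 0.04).

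All 13 tested ionotropic glutamate receptor genes were higher in the intermediate pieces, with a median of 0.89. The AMPA receptor subunit Gria1 measured 11.03, 11.03 and 10.88 in the intermediate and 9.77, 9.73 and 9.68 in the ventral pieces (1.26 ± 0.04). Gria2, the subunit that limits calcium entry, measured 13.38, 13.51 and 13.18 in the intermediate and 12.34, 12.24 and 12.22 in the ventral pieces (1.09 ± 0.08). The largest difference was for the kainate receptor subunit Grik1, at 11.20, 11.16 and 11.09 in the intermediate and 9.58, 9.56 and 9.52 in the ventral pieces (3.03-fold; adjusted p = 0.00112). The NMDA receptor subunit Grin2b was higher (1.29 ± 0.15), a call lost without animal 1 (adjusted p = 0.0531). Other members, named after their values were seen, also lost their calls. These were Gria4 without animal 1, Grik3 and Grik4 without animal 1 or 2, and Grik5 without animal 3.

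GABA-A receptor subunits went both ways, 4 higher and 4 lower of 8 tested, with a median of 0.519. Gabra3 (1.32 ± 0.04), Gabra5 (1.29 ± 0.04) and Gabrg3 (1.22 ± 0.12) were higher, and Gabra5 measured 11.68, 11.62 and 11.67 in the intermediate and 10.45, 10.27 and 10.40 in the ventral pieces. Gabra4 (-0.55 ± 0.03), Gabra2 (-0.50 ± 0.08) and Gabrg1 (-0.23 ± 0.05) were lower, and Gabra4 measured 9.83, 9.76 and 9.77 in the intermediate and 10.37, 10.30 and 10.33 in the ventral pieces. The adjusted p of Gabra4 was 0.00148. Gabra2 lost its call without animal 3 (adjusted p = 0.077), and Gabrg1 without animal 1, 2 or 3 (adjusted p = 0.12, 0.0527 and 0.0738); with any 1 animal left out, 2 subunits were called lower.

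Of 6 tested monoamine receptor genes, 4 were higher and none lower, with a median of 0.768. The share called was 66.7%, against 58.1% over all tested genes. All 4 were serotonin receptors: Htr2c at 12.25, 12.09 and 12.34 in the intermediate and 10.69, 10.60 and 10.81 in the ventral pieces (2.88-fold; adjusted p = 0.00112), Htr1b (1.16 ± 0.04), Htr7 (1.08 ± 0.05) and Htr1a (0.46 ± 0.05). Their values did not overlap between the regions, as in 67.8% of all tested genes.

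Voltage-gated channels were mostly higher in the intermediate pieces. For potassium channels and their partners the count was 17 higher and 1 lower of 25 tested, with a median of 0.637. Kcnip2, a subunit that modulates A-type channels, measured 7.57, 7.53 and 7.32 in the intermediate and 5.12, 5.27 and 5.09 in the ventral pieces (4.97-fold). Kcnc2, a fast delayed rectifier, was at 8.74, 8.94 and 8.62 in the intermediate and 7.04, 6.95 and 6.72 in the ventral pieces (3.64-fold). Kcnq5, a subunit of the M-current, was at 9.20, 9.18 and 9.13 in the intermediate and 7.37, 7.33 and 7.45 in the ventral pieces (3.46-fold). The regions did not overlap in any of these, nor in 67.8% of all tested genes. The lower member was Kcna1, a channel of the axon beside the node of Ranvier, at 9.45, 9.31 and 9.65 in the intermediate and 10.19, 10.16 and 10.11 in the ventral pieces, a call lost without animal 1 (adjusted p = 0.0693); its close relative Kcna2 differed by 0.11 ± 0.05 (adjusted p = 0.148). Without animal 2, 2 members were called lower.

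For sodium and calcium channels 22 of 25 tested were higher and 1 lower, with a median of 0.875. The sodium channels Scn3a (11.14, 11.11 and 10.97 in the intermediate and 9.55, 9.59 and 9.34 in the ventral pieces) and Scn2a (1.49 ± 0.04), and Scn1a with a smaller difference of 0.70 ± 0.03, were higher. Among calcium channels, the T-type channel Cacna1g was 3.37-fold higher. The auxiliary subunit Cacna2d1, the target of gabapentin, was 3.55-fold higher by its brightest probe set, while another of its probe sets differed by -0.183. Scn4b, a sodium channel beta subunit of large neurons, was the lower member (-0.35 ± 0.06), a call lost without animal 1 or 3 (adjusted p = 0.0942 and 0.0941).

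Calcium-binding protein genes were divided, 10 higher and 4 lower of 17 tested, with a median of 0.726. Necab1, a neuronal calcium-binding protein, measured 9.58, 9.58 and 9.37 in the intermediate and 6.23, 6.28 and 6.73 in the ventral pieces (8.58-fold higher). Hpcal4, a neuronal calcium sensor, was at 10.47, 10.58 and 10.37 in the intermediate and 7.53, 7.66 and 7.15 in the ventral pieces (8.15-fold). Calbindin (Calb1), a marker of several interneuron classes, was at 10.14, 9.90 and 9.68 in the intermediate and 7.63, 7.63 and 7.60 in the ventral pieces (4.88-fold). All ventral values of these genes were below all intermediate ones, and 67.8% of all tested genes were separated in 1 direction or the other. The genes that were lower were led by S100a6 at 9.43, 9.72 and 9.79 in the intermediate and 11.30, 11.32 and 11.43 in the ventral pieces (-1.71 ± 0.07), followed by S100b, a protein of astrocytes and oligodendrocytes (-0.96 ± 0.03), and S100a10 (-0.96 ± 0.09).

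Synaptic vesicle genes were higher in the intermediate pieces in 25 of 28 cases tested and lower in 1, with a median of 1.09. Synapsin 1 (Syn1) measured 9.74, 9.69 and 9.89 in the intermediate and 8.55, 8.69 and 8.70 in the ventral pieces (1.13 ± 0.06; adjusted p = 0.00137), and synapsin 3 (Syn3) was 3.1-fold higher. Syt1, the calcium sensor of fast release, was at 11.997 in each intermediate piece and at 9.66, 9.79 and 9.78 in the ventral pieces (4.78-fold). Doc2b, a sensor of spontaneous release, had the largest difference (2.65 ± 0.38) but also the widest ventral spread, at 6.33, 6.50 and 5.49, and lost its call without animal 1 (adjusted p = 0.0637). Rims2, a protein of the active zone, was the lower member, at 12.40, 12.48 and 12.46 in the intermediate and 12.82, 12.87 and 12.92 in the ventral pieces. In the same intermediate pieces 27 of 29 tested genes of myelinating oligodendrocytes and 22 of 24 of the meninges were lower, and the part of cell composition in the neuronal result was not tested.

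Neuronal adhesion genes followed closely, 23 of 25 higher and 1 lower, with a median of 1.00. Cntn5, a contactin, measured 8.19, 7.93 and 7.96 in the intermediate and 6.21, 5.76 and 5.83 in the ventral pieces (4.27-fold), the contactin-associated Cntnap5a was 3.18-fold higher, and Cbln1, which bridges neurexins to postsynaptic receptors, 3.04-fold. Cntn2, found on growing axons, was higher (0.67 ± 0.11), a call lost without animal 1 or 2 (adjusted p = 0.0517 and 0.0799). Nfasc, the neurofascin of nodes and of myelinating glia, was the lower member at 9.82, 9.89 and 10.25 in the intermediate and 11.20, 11.48 and 11.40 in the ventral pieces (-1.38 ± 0.10). For Cntn1 the probe sets disagreed: the brightest gave 0.24 ± 0.03, lost without animal 1 (adjusted p = 0.0602), and another gave -1.5.

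Cadherins and protocadherins were higher in 13 and lower in 5 of 24 cases, with a median of 0.312. Cdh7 (1.73 ± 0.07), Cdh8 (1.54 ± 0.17) and Pcdh8 (1.35 ± 0.08), all neuronal, were higher, and Cdh7 measured 9.79, 9.80 and 9.73 in the intermediate and 8.12, 7.90 and 8.12 in the ventral pieces. Cdh19, a cadherin of Schwann cells and their precursors, was lower at 4.35, 4.14 and 4.43 in the intermediate and 7.64, 7.56 and 7.52 in the ventral pieces (9.62-fold), as was Cdh5, the cadherin of blood vessel walls (-0.92 ± 0.04). Cdh1, epithelial cadherin, was lower (-1.26 ± 0.19), a call lost without animal 2 (adjusted p = 0.0681). Cdh2, or N-cadherin, was close to equal in level, at 13.57, 13.53 and 13.42 in the intermediate and 13.27, 13.21 and 13.34 in the ventral pieces, and lost its call without animal 1 or 2 (adjusted p = 0.202 and 0.183).

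Axon guidance genes went both ways, 15 higher and 16 lower of 42 tested, with a median of 0.0857. The share called was 73.8%, against 58.1% over all tested genes. Higher were the ephrins Efna5 at 8.94, 8.88 and 8.88 in the intermediate and 7.55, 7.47 and 7.46 in the ventral pieces (2.64-fold) and Efna3 (1.10 ± 0.06), and the netrin receptor Unc5d (1.20 ± 0.03). Lower were Plxnb3, a semaphorin receptor of oligodendrocytes, at 10.21, 10.38 and 10.72 in the intermediate and 12.14, 12.10 and 12.18 in the ventral pieces (3.25-fold), and the semaphorins Sema4d (-1.62 ± 0.11) and Sema3d (-1.44 ± 0.05). Sema3a, a secreted repellent of astrocytes and motor neurons in the ventral cord, measured 8.70, 8.63 and 8.96 in the intermediate and 8.94, 8.87 and 8.95 in the ventral pieces and did not pass the test (adjusted p = 0.15), while its relative Sema3c was higher (0.71 ± 0.08).

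**Figure D4:**
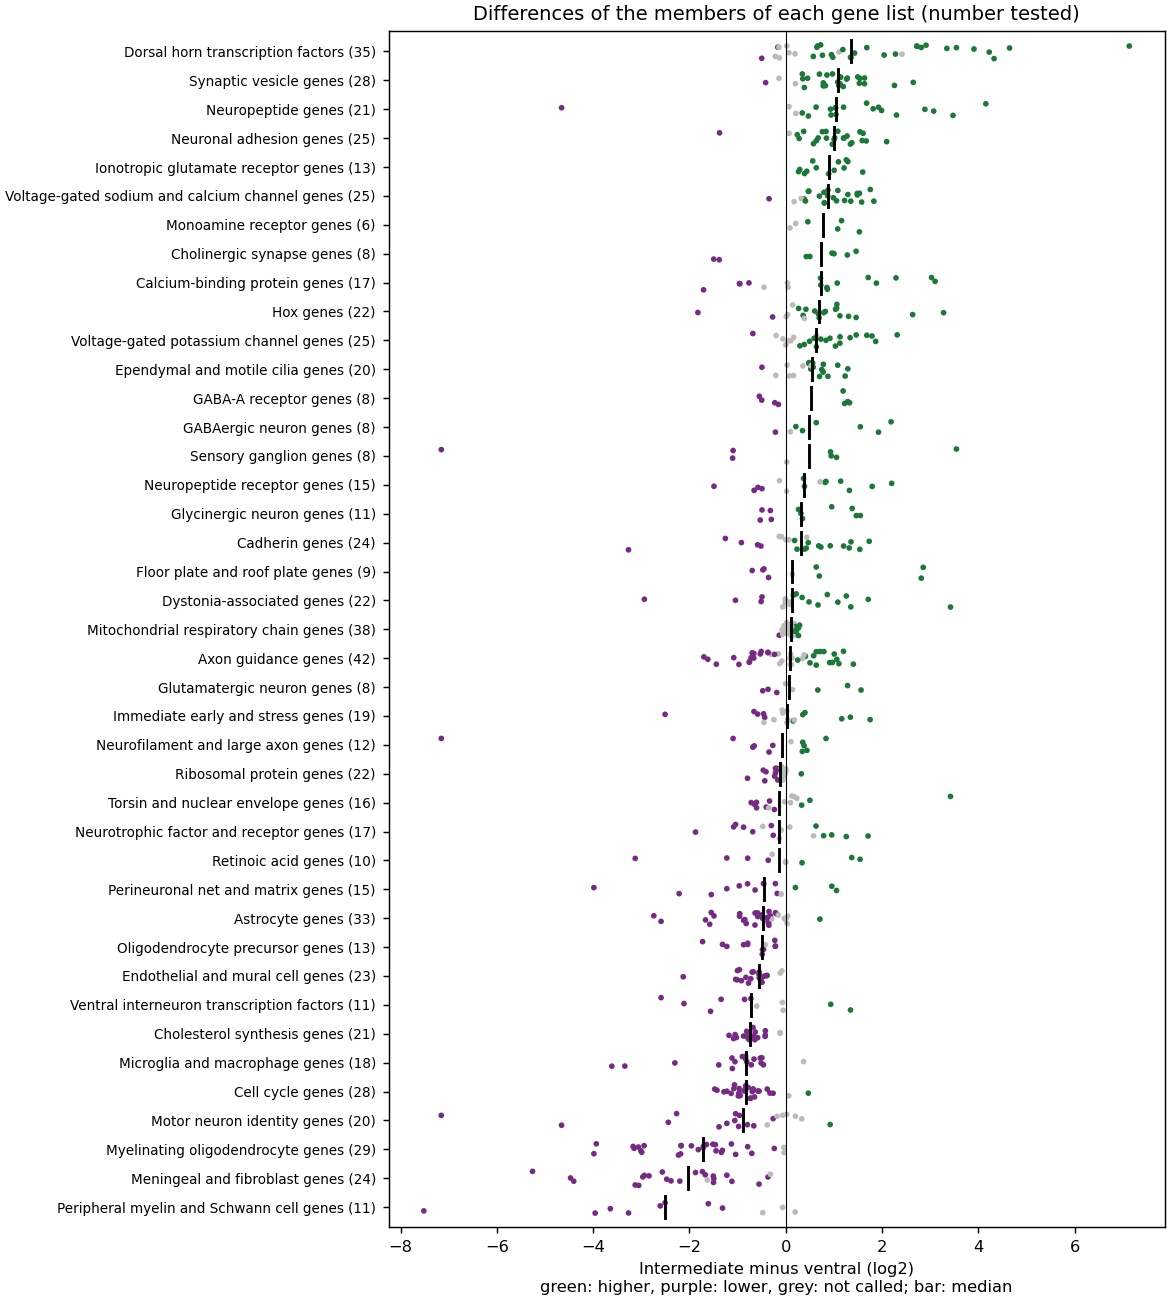
For each gene list other than the erythroid one, the points are the differences of its tested members, intermediate minus ventral (log2), and the tick is the list's median; coloured points have an adjusted p under 0.05. Lists of synapses, channels, peptides and dorsal horn factors lie to the right of 0, and lists of myelin, meninges, microglia and cell division lie to the left.

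Hox genes, which set position along the length of the cord, were higher in 16 and lower in 2 of 22 cases, with a median of 0.684. Hoxb9 measured 9.51, 9.57 and 9.25 in the intermediate and 6.15, 6.14 and 6.21 in the ventral pieces, a 9.69-fold difference (adjusted p = 0.00112). Hoxb5 stood at 8.96 on each intermediate array and at 5.66, 6.79 and 6.53 on the ventral arrays (6.21-fold), and Hoxb3 was 2.75-fold higher. Hoxd1 was lower, at 2.43, 2.48 and 2.59 in the intermediate and 4.48, 3.89 and 4.61 in the ventral pieces (-1.83 ± 0.16; adjusted p = 0.00329). Hoxd8 differed by -0.27 ± 0.04, a call lost without animal 2 or 3 (adjusted p = 0.0667 and 0.0721), which leaves 1 lower member. Hoxa2 (0.01 ± 0.03; adjusted p = 0.812) and Hoxa3 (0.14 ± 0.18; adjusted p = 0.533) did not pass the test. Both pieces of an animal carry its animal number, but the labels do not say that they came from the same level of the cord.

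Dystonia-associated genes were mixed, with 11 of 22 tested higher in the intermediate pieces, 4 lower and a median of 0.127. The share called was 68.2%, against 58.1% of all tested genes. Some higher members, named after their values were seen, lost their calls with 1 animal left out. These were Ciz1 (without animal 1, 2 or 3), Kcnma1 (without animal 1 or 3) and Kmt2b (without animal 1 or 2). Tor1a, which codes for torsinA of the nuclear envelope and endoplasmic reticulum, measured 8.75, 8.63 and 8.67 in the intermediate and 8.54, 8.58 and 8.63 in the ventral pieces. The difference of 0.10 ± 0.05 did not pass the test (adjusted p = 0.19). Thap1, a zinc-finger factor, did not pass it either (-0.06 ± 0.05; adjusted p = 0.327). Klhl14, a Kelch-family protein that binds torsinA (also called printor), had the largest difference, at 9.28, 9.07 and 9.44 in the intermediate and 5.82, 5.71 and 6.01 in the ventral pieces. The values of each region lay close together and far from the other region, and the difference was 10.7-fold (3.42 ± 0.04; adjusted p = 0.00112).

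The calcium sensor hippocalcin (Hpca), highly expressed in neurons, measured 11.07, 11.01 and 11.13 in the intermediate and 9.48, 9.31 and 9.29 in the ventral pieces (3.28-fold). The presynaptic calcium channel Cacna1b was at 11.80, 11.74 and 11.54 in the intermediate and 10.32, 10.45 and 10.26 in the ventral pieces (2.55-fold). Lower in the intermediate pieces was Col6a3, a collagen VI chain, at 4.84, 5.41 and 5.41 in the intermediate and 8.45, 8.31 and 7.72 in the ventral pieces (-2.94 ± 0.29). Tubb4a, a tubulin of neurons and myelinating cells, was lower at 8.91, 9.12 and 9.36 in the intermediate and 10.05, 10.27 and 10.21 in the ventral pieces (-1.05 ± 0.08), as was Sgce, epsilon-sarcoglycan (-0.51 ± 0.04). Another probe set of Sgce gave 0.313. Col6a3 is also in the list of meningeal genes, 22 of 24 of which were lower in the intermediate pieces; their part in its difference was not tested.

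Of 16 torsin and nuclear envelope genes tested, 3 were higher and 7 lower, with a median of -0.131. The share called, 62.5%, was near the 58.1% of all tested genes. Without animal 1, 2 were lower, and without animal 3, 4. Tor1aip2, a torsin cofactor of the endoplasmic reticulum, was lower at 10.28, 10.34 and 10.56 in the intermediate and 11.10, 11.11 and 11.12 in the ventral pieces (-0.72 ± 0.07; adjusted p = 0.00364). Snapin, a SNARE-binding protein, was lower (-0.61 ± 0.05), and Tor1b, the closest relative of torsinA, differed by -0.34 ± 0.08, a call lost without animal 1 or 3 (adjusted p = 0.151 and 0.122). Kif5b, a kinesin heavy chain, was lower (-0.65 ± 0.13) and lost its call without animal 1 or 3 (adjusted p = 0.116 and 0.062). Higher beside Klhl14 were the nesprins that link nucleus and cytoskeleton, Syne1 (0.50 ± 0.05; adjusted p = 0.00527) and Syne2 (0.33 ± 0.07), the latter lost without animal 1 or 2 (adjusted p = 0.0983 and 0.0824).

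Neurotrophic factors and their receptors were higher in 5 and lower in 7 of 17 cases, with a median of -0.133. The share called was 70.6%, against 58.1% over all tested genes. Bdnf, brain-derived neurotrophic factor, measured 6.12, 5.50 and 6.16 in the intermediate and 4.50, 3.45 and 4.70 in the ventral pieces (3.27-fold; adjusted p = 0.00282). Ntrk2, its receptor, was 2.39-fold higher by its brightest probe set, while 2 dimmer probe sets gave -0.262 and -0.229. Gfra2, a coreceptor of the neurturin system, was higher (0.95 ± 0.05). Lower were Igf2, an insulin-like growth factor of the meninges, at 8.69, 8.86 and 9.02 in the intermediate and 10.79, 11.01 and 10.38 in the ventral pieces (-1.87 ± 0.20), Il6st, a receptor chain of the interleukin-6 family (-1.08 ± 0.06), and Ret, given above.

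Myelin genes were lower in the intermediate pieces in 27 of 29 cases tested and higher in none, with a median of -1.72. Mog, a protein of the myelin surface, measured 9.84, 10.19 and 10.72 in the intermediate and 13.18, 13.22 and 13.33 in the ventral pieces (7.95-fold lower; adjusted p = 0.0015). Mal, a proteolipid of compact myelin, measured 10.30, 10.82 and 11.34 in the intermediate and 13.94, 13.92 and 14.11 in the ventral pieces (9-fold lower). Their intermediate values spread over about 1 unit between animals and lay lowest in animal 1, while the ventral values lay close together. Mbp, myelin basic protein, did not pass the test by its brightest probe set (15.92, 15.90 and 15.99 in the intermediate and 15.97, 15.94 and 16.01 in the ventral pieces; adjusted p = 0.336), which lies near the top of the scale in both regions. With the most variable of its probe sets the difference was -2.29, and with the mean of all of them -0.52. The summed level of the list was 137000 to 167000 in the intermediate and 274000 to 292000 in the ventral pieces.

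Oligodendrocyte precursor genes were lower in 12 of 13 cases and higher in none, with a smaller median of -0.49. Pdgfra, the growth factor receptor that marks these precursors, differed by only -0.23 ± 0.03, at 11.94, 11.95 and 11.99 in the intermediate and 12.13, 12.22 and 12.21 in the ventral pieces, and lost its call without animal 1, 2 or 3 (adjusted p = 0.0545, 0.053 and 0.0554). Cspg4, the proteoglycan NG2, was lower (-0.49 ± 0.04). Larger differences were those of Bmp4 (-1.73 ± 0.18), a growth factor of cells that start to differentiate, of Sox10 at 9.68, 9.90 and 9.95 in the intermediate and 11.08, 11.21 and 11.18 in the ventral pieces (-1.31 ± 0.05), a factor of all oligodendrocyte stages and of Schwann cells, and of the proteoglycan Vcan (-1.22 ± 0.04).

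Genes of peripheral myelin and Schwann cells had the lowest list median, -2.51, with 8 of 11 tested lower and none higher. Pmp2, a fatty-acid-binding protein of peripheral myelin, measured 2.146, 2.94 and 2.28 in the intermediate and 10.31, 10.03 and 9.56 in the ventral pieces. It stood at the floor on 1 intermediate array and high on all ventral ones (-7.52 ± 0.25; adjusted p = 0.00112). Egr2, the factor that drives Schwann cell myelination, measured 4.84, 4.33 and 4.46 in the intermediate and 7.38, 6.88 and 6.88 in the ventral pieces (5.68-fold lower), and Cdh19 and Pmp22 are given above.

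Cholesterol synthesis genes were lower in 19 of 21 cases tested and higher in none, with a median of -0.736. The pathway starts from acetyl-CoA and supplies the sterol of growing myelin. Hmgcs1, its first committed enzyme, measured 15.11, 15.13 and 15.18 in the intermediate and 15.60, 15.47 and 15.63 in the ventral pieces (-0.43 ± 0.04; adjusted p = 0.00444). Further along, Idi1, the isopentenyl diphosphate isomerase, measured 12.60, 12.69 and 12.67 in the intermediate and 13.67, 13.74 and 13.71 in the ventral pieces (2.07-fold lower). Fdps, farnesyl diphosphate synthase, measured 10.22, 10.28 and 10.62 in the intermediate and 11.50, 11.58 and 11.58 in the ventral pieces (2.26-fold lower). The regions were separate in both, as in 67.8% of all tested genes. Lss, which closes the sterol rings, was at 10.88, 11.02 and 11.09 in the intermediate and 11.94, 12.12 and 12.18 in the ventral pieces (2.12-fold lower). Mvk, mevalonate kinase, was lower (-0.63 ± 0.06).

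Promoters are shown for this list because nearly all of its members moved together. RefSeq promoters (assembly GRCm38.p6) were matched for 18 of the 21 tested genes. The letters CCAAT, on either strand of the 250 bases before the start, were found for 17 of the 18 (94.4%), counting any promoter of a gene, against 40.8% of 9389 tested genes with a promoter and 37.5% of all 27025 genes that have one. Of the 18, 16 were called lower and all 16 held it, which nearly restates the count of the list. Such a share belongs to the genes of the list and does not come from the arrays. The sterol regulatory element searched as TCACNCCAC on either strand was in 1 of the 18 (5.56%), Hmgcs1, against 1.27% of tested genes. The promoters of Lss and Idi1, the 2 called members with the largest difference among those that hold CCAAT, and of Hmgcs1 follow, written 5′ to 3′ on the gene's strand, with matches in capitals. Lss is at chr10:76531355-76531604 (plus strand), Idi1 at chr13:8885356-8885605 (plus strand) and Hmgcs1 at chr13:119690101-119690350 (plus strand).
Lss: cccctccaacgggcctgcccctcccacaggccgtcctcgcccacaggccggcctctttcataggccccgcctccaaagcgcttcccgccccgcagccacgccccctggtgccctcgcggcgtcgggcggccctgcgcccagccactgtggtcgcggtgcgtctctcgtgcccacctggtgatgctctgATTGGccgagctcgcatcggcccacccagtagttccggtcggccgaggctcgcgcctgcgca
Idi1: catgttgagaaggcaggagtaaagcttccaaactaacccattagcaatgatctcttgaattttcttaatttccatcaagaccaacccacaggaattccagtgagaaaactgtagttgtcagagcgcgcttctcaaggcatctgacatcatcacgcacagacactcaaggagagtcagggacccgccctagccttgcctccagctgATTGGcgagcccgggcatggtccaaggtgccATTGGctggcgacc
Hmgcs1: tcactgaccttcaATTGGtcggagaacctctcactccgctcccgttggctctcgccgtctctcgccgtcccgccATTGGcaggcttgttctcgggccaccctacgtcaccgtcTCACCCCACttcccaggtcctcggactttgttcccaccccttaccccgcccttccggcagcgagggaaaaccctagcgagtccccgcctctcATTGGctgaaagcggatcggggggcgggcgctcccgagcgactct
A match describes the letters in these windows and was not tested as a binding site.

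Astrocyte genes were lower in 26 of 33 cases and higher in 1, with a median of -0.479. Some lower members lost their calls with 1 animal left out. These were Lcat, Ndrg2, Nes, Reln, Slc1a2, Slc4a4, Slc6a11, Slc7a10 and Sox9, named here for that reason. Gfap, the filament of fibrous and reactive astrocytes, stood apart at 9.02, 9.42 and 9.59 in the intermediate and 12.03, 12.15 and 12.08 in the ventral pieces, 6.68-fold lower in the intermediate pieces (adjusted p = 0.00119). Aqp4, the water channel of astrocyte endfeet, was high in both regions, at 14.33, 14.41 and 14.47 in the intermediate and 15.004, 14.99 and 14.96 in the ventral pieces (-0.58 ± 0.05). The surface receptor Cd44 (-1.67 ± 0.07) and the matrix protein tenascin C (Tnc, -1.55 ± 0.05) were lower. The 1 member that was higher was Hes5, a Notch target of progenitors and grey-matter astrocytes, at 9.91, 9.95 and 9.91 in the intermediate and 9.26, 9.24 and 9.14 in the ventral pieces (0.71 ± 0.04; adjusted p = 0.00151).

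Microglia and macrophage genes were lower in 17 of 18 cases and higher in none, with a median of -0.833 and a summed level of 6730 to 7440 in the intermediate and 12600 to 13400 in the ventral pieces. Larger differences were those of genes of the macrophages that line brain and cord borders. Beside Mrc1, the chemokine Pf4 measured 3.73, 4.31 and 3.74 in the intermediate and 7.33, 7.57 and 6.91 in the ventral pieces (10.1-fold lower; adjusted p = 0.00112). The coagulation factor F13a1 was at 4.32, 4.11 and 3.98 in the intermediate and 6.43, 7.10 and 5.79 in the ventral pieces, a call lost without animal 1 (adjusted p = 0.0501). Csf1r, the growth factor receptor of all microglia, differed less (-0.72 ± 0.07), as did Aif1, the microglial protein Iba1 (-0.46 ± 0.05). Tmem119, Trem2 and Itgam, further microglial markers, were at or just above the floor on all 6 arrays.

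Genes of the meninges and fibroblasts were lower in 22 of 24 cases and higher in none, with a median of -2.04. In addition to Ogn, Dcn and Col1a1, the collagen chain Col1a2 measured 10.61, 10.83 and 10.60 in the intermediate and 13.26, 13.30 and 12.90 in the ventral pieces (5.55-fold lower; adjusted p = 0.00112). Genes of vessel walls were lower in 21 of 23 cases and higher in none, with a median of -0.555 and a summed level of 21300 to 22100 against 33300 to 34700. Acta2, the actin of smooth muscle, was at 8.55 on each intermediate array and at 10.50, 10.54 and 10.999 on the ventral arrays (-2.13 ± 0.13). Abcb1a, a drug efflux pump of the blood-brain barrier, was lower (-1.01 ± 0.09), and so was Emcn, an endothelial sialomucin (-1.04 ± 0.24), a call lost without animal 1 or 2 (adjusted p = 0.0966 and 0.145). Neither of the 2 erythroid genes that could be tested was called, with a median of -0.296.

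**Figure D5:**
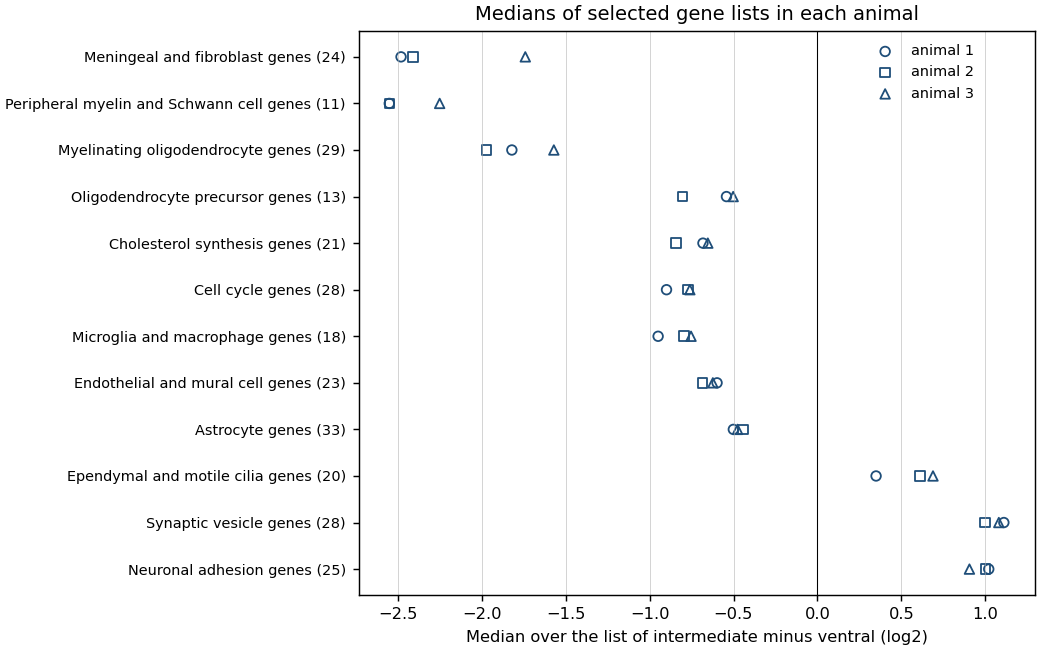
Median difference of the tested members of 12 selected lists, intermediate minus ventral (log2), in each animal: circles for animal 1, squares for animal 2 and triangles for animal 3. In each list all 3 animals lie on the same side of 0, with the glial, meningeal, vessel and cell cycle lists to the left and the ependymal, synaptic vesicle and adhesion lists to the right.

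Ependymal and motile cilia genes, made by the cells that line the central canal, were higher in the intermediate pieces in 13 of 20 cases tested and lower in 1, with a median of 0.543. The count was 9 without animal 1, 7 without animal 2 and 8 without animal 3. Cfap54, a cilium assembly protein, measured 5.77, 5.85 and 5.64 in the intermediate and 4.64, 4.45 and 4.47 in the ventral pieces (1.23 ± 0.07; adjusted p = 0.00159). Foxj1, the master factor of motile cilia, was at 5.86, 6.37 and 6.31 in the intermediate and 5.39, 5.39 and 5.53 in the ventral pieces (0.75 ± 0.12), a call lost without animal 3 (adjusted p = 0.0847). Fam183b, a ciliary gene, was higher (1.29 ± 0.20), lost without animal 1 (adjusted p = 0.0643). Vit, an extracellular matrix protein, was lower (-0.50 ± 0.07), lost without animal 2 (adjusted p = 0.0559). The summed level of the list was 1970 to 2250 in the intermediate and 1570 to 1680 in the ventral pieces.

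Genes of the ventral and dorsal midline split, 4 higher and 4 lower of 9 tested, with a median of 0.135. Gdf10, a growth factor of the TGF-beta superfamily, measured 9.08, 9.15 and 8.89 in the intermediate pieces and 6.19 on each ventral array (7.23-fold; adjusted p = 0.00112). Rspo3, a Wnt enhancer, was higher (0.70 ± 0.09), lost without animal 1 or 3 (adjusted p = 0.0592 and 0.0559). On the ventral side, Ntn1, the axon attractant netrin 1, was lower in the intermediate pieces at 9.51, 9.58 and 9.51 in the intermediate and 10.14, 10.33 and 10.24 in the ventral pieces (-0.70 ± 0.04), as was the sulfatase Sulf1 (-0.48 ± 0.05). Shh, the floor plate signal, measured 4.33, 4.39 and 4.18 in the ventral pieces and 3.85 on each intermediate array, a call lost without animal 1 (adjusted p = 0.0576).

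A list of sensory ganglion genes was also followed. Of 8 tested, 4 were higher and 3 lower, with a median of 0.474, and the summed level was 14000 to 15100 in the intermediate and 15800 to 17100 in the ventral pieces. The largest differences were those of Pou4f1 (3.54) and Prph (-7.15), given above. Genes that are selective for sensory neurons, Avil, Scn10a, Trpv1, Runx1 and Runx3, were at the floor on all 6 arrays. The floor does not show that ganglion tissue was absent. Called members that cord neurons also make included the sodium channel Scn9a, at 9.56, 9.33 and 9.09 in the intermediate and 8.44, 8.50 and 7.88 in the ventral pieces (1.05 ± 0.09), and the neuronal tubulin Tubb3 (0.94 ± 0.04), both higher. Gamma-synuclein (Sncg) was among those lower, at 8.80, 8.91 and 9.17 in the intermediate and 10.11, 10.11 and 9.97 in the ventral pieces (-1.10 ± 0.12).

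Cell cycle genes were lower in 26 of 28 cases and higher in 1, with a median of -0.834. Some lower members, named after their values were seen, lost their calls with 1 animal left out. Without animal 3 these were Aurka, Aurkb, Bub1b, Ccne2 and Mcm4, and without animal 2 it was Cdk1. Aurka, Bub1b and Ccne2 were also lost without animal 1. Mki67, the proliferation antigen, measured 8.85, 8.92 and 8.85 in the intermediate and 9.92, 10.03 and 9.86 in the ventral pieces (2.09-fold lower; adjusted p = 0.00112). Top2a, the DNA topoisomerase of dividing cells, measured 8.41, 8.53 and 8.41 in the intermediate and 9.63, 9.54 and 9.42 in the ventral pieces (2.11-fold lower). The differences of Cenpa, a centromere histone, Bub1, a spindle checkpoint kinase, and Mcm3, of the replicative helicase, were -1.48 ± 0.14, -1.43 ± 0.04 and -1.28 ± 0.03. Ccne1, cyclin E1, was the 1 member that was higher, at 7.13, 7.17 and 7.33 in the intermediate pieces and 6.74 on each ventral array (0.47 ± 0.05).

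The promoters of this list are shown for the same reason. Of the 28 genes, 22 had a RefSeq promoter. CCAAT, on either strand, was in 19 of them (86.4%), against 40.8% of tested genes. As 20 of the 22 were called lower, the count among these, 19 of 20, nearly restates that of the list. The cell cycle homology region, searched as TTTGAA on either strand, was in 7 (31.8%), against 12.4% of tested genes, and all 7 also held CCAAT; both were together in 4.64% of tested genes. Those printed are Mki67 at chr7:135716380-135716629 (minus strand), Top2a at chr11:99024190-99024439 (minus strand) and Ube2c, which codes for a ubiquitin-conjugating enzyme of mitotic exit, at chr2:164769679-164769928 (plus strand), on the gene's strand with matches in capitals. In Ube2c a stretch of 8 capitals holds CCAAT on both strands, overlapping.
Mki67: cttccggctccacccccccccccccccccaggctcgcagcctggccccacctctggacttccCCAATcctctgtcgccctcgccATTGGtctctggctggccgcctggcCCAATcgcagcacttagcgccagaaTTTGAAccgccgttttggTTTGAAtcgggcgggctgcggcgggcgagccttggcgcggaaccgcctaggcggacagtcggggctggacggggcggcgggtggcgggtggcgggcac
Top2a: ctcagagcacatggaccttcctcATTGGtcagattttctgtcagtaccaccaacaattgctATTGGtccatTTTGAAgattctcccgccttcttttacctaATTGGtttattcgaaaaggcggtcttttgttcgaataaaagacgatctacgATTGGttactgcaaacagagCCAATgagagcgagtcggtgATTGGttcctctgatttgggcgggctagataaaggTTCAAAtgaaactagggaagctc
Ube2c: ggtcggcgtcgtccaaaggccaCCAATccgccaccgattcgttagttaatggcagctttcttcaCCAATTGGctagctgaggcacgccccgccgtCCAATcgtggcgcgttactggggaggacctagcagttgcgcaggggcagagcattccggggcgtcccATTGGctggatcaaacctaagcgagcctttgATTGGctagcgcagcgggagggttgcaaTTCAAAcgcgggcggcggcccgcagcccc
They belong to the 3 called members with the largest difference among those that hold both motifs, and a match was not tested as a binding site.

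Gene lists that every cell uses had medians near 0. The shares called, 26.3% for respiratory chain and 50% for ribosomal protein genes, were below the 58.1% of all tested genes. Of 38 tested genes of the mitochondrial respiratory chain, 9 were higher and 1 lower, with a median of 0.0999, and without animal 1 only 1 was higher (3 without animal 2 and 3 without animal 3, with none lower in each case). Cox5a, a subunit of cytochrome oxidase, was higher (0.26 ± 0.03), lost without animal 2 (adjusted p = 0.0527), and Ndufa1, of complex I, did not pass the test (-0.02 ± 0.03). Ribosomal protein genes were lower in 10 and higher in 1 of 22 cases, with a median of -0.112, and without animal 1 or animal 2 the lower count was 2 or 3. Rps6 measured 8.62, 8.75 and 8.59 in the intermediate and 9.47, 9.40 and 9.48 in the ventral pieces (-0.80 ± 0.06; adjusted p = 0.00269) and Rpl7 was lower (-0.47 ± 0.05), whereas Rpl4 (-0.01 ± 0.05) and Rpl6 (0.00 ± 0.05) did not pass the test. Rpl12, the higher one, lost its call without animal 2 or 3 (adjusted p = 0.188 and 0.175).

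Immediate early and stress genes went both ways, 6 higher and 5 lower of 19, with a median of 0.0203. The share called, 57.9%, was near the 58.1% of all tested genes. Npas4, a factor induced by neuronal activity, measured 4.68, 4.48 and 4.44 in the intermediate and 3.01, 3.01 and 2.32 in the ventral pieces (1.75 ± 0.15; adjusted p = 0.00313), Nr4a3, an inducible nuclear receptor, was 2.53-fold higher and the heat shock gene Hspa1a 2.24-fold. Jun was lower (-0.66 ± 0.04), and Fos, at 7.08, 6.48 and 6.24 in the intermediate and 7.46, 7.08 and 7.02 in the ventral pieces, was lower with a call lost without animal 2 (adjusted p = 0.0801). Egr2, which Schwann cells also make, had the largest difference toward the ventral pieces in this list.

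Retinoic acid genes went both ways: 3 of 10 were higher and 4 lower, with a median of -0.142. The share called was 70%, against 58.1% over all tested genes. The synthesising enzymes Aldh1a1 at 7.57, 7.72 and 8.02 in the intermediate and 10.88, 10.83 and 10.98 in the ventral pieces (8.74-fold lower; adjusted p = 0.00112) and Aldh1a2 (-1.22 ± 0.12) were lower in the intermediate pieces, as was Dhrs3, which turns retinal back to retinol (-0.79 ± 0.09). The receptor Rarb was higher at 7.07, 7.17 and 6.89 in the intermediate and 5.55, 5.99 and 5.48 in the ventral pieces (1.37 ± 0.08). The binding protein Crabp1 was higher at 11.88, 11.76 and 12.03 in the intermediate and 10.32, 10.20 and 10.53 in the ventral pieces (2.91-fold), and the receptor Rxrb was higher (0.34 ± 0.07), a call lost without animal 1 or 2 (adjusted p = 0.117 and 0.0927). The remaining lower member was another receptor, Rxra (-0.36 ± 0.03; adjusted p = 0.00336), named after its values were seen. Both Aldh1a enzymes are also in the meningeal list, and the part of the meninges in their difference was not tested.

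Genes of perineuronal nets and the neural matrix were lower in 11 and higher in 3 of 15 cases, with a median of -0.462, and without animal 1 the lower count was 7. Adamts4, a protease that cleaves aggrecan and versican, measured 8.75, 8.92 and 9.26 in the intermediate and 11.15, 11.14 and 11.28 in the ventral pieces (4.64-fold lower), and Bcan, brevican, was lower (-0.46 ± 0.03). Lgi1 at 9.42, 9.42 and 9.41 in the intermediate and 8.27, 8.37 and 8.46 in the ventral pieces and Lgi2 (0.96 ± 0.03), secreted synaptic proteins, were higher, and so was Cspg5 (0.20 ± 0.03), a call lost without animal 1, 2 or 3 (adjusted p = 0.0901, 0.0524 and 0.0606). Acan, the aggrecan of mature nets, was at or just above the floor on all 6 arrays.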

How the data were processed

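RNA of spinal cord pieces was extracted with a kit, and 500 ng of total RNA was made into biotin-labelled cRNA and hybridised to Affymetrix arrays, per the labels' protocols. The authors deposited 1 value per probe set and array, taken here as log2 from its range of 2.146 to 16.27; the scale and the way values were summarised, normalised and floored are not stated by any label. A wrong reading of the scale would change every fold. Probe sets were named from the platform's annotation: 34945 carried a single symbol, 932 several and 9160 no entry. Each gene was represented by its probe set with the highest mean over the 6 arrays, and 11575 of 18193 genes, with a mean at least 1 above the lowest value, were tested.

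limma 3.58.1 in R 4.3.3 (lmFit and eBayes, default options) fitted region with the animal number of the titles as a block, which leaves 2 residual degrees of freedom beside a prior of 1.42. The pairing comes from the titles; deviations from the region means correlated at 0.134, 0.012 and 0.107 between pieces of an animal and at -0.146 to 0.041 between animals. Genes were called at a Benjamini-Hochberg adjusted p under 0.05, two-sided. Precision is limited by the number of arrays. Values repeat between arrays: 902 tested genes, 214 of them called, had 3 identical values in a region. On simulated data the fit was checked to return known differences.

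Members and gene lists were chosen with earlier results of these data known. Named genes were the 12 with the largest difference in each direction that were above the floor on all 6 arrays and moved alike in all 3 animals, those at the floor throughout 1 region, up to 3 called members of a list in each direction and its first 2 measured members, and Tor1a and Klhl14. Others are marked as chosen after their values were seen. Promoter sequences are those of RefSeq, assembly GRCm38.p6, which is not tied to the arrays' values. The alternatives tried were the block, the arrays entered, leaving out each animal, centring, the filter, the choice of probe set, repeated values and the moderation.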

Additional observations from a re-analysis of the deposited data

How the results depend on the processing

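Against 6724 genes called with the animal as a block, 7076 were called without the replicate block, and 6509 genes were called by both fits. Of the genes named, Fos (adjusted p = 0.0917), Rpl12 (0.0576), Slc1a2 (0.0501) and Sst (0.0633) lost and Tal1 (0.033) gained a call without the block, and no other call named changed. Genes named only for a call lost without an animal are not covered by that statement. List counts moved over 1.5 times without it only where 1 member was called: potassium channels lower (2), synaptic vesicle genes lower (2) and ribosomal protein genes higher (0). Leaving out 1 animal gave 4499 to 5241 genes, 2193 to 2583 of them higher and 2306 to 2737 lower, and 1180 to 1280 with at least a 2-fold difference, against 1320. The mean of all probe sets of a gene lowered that 2-fold count to 862. Other settings gave 4879 genes (no filter on dim probe sets, which the 30th percentile equals because it lies at the floor) to 7079 (trend and robust moderation). Directions reversed with the choice of probe set alone. With the most variable probe set the differences were -0.2652 for Aldoc, -1.50 for Cntn1, -0.1489 for Dnajb1, 0.3539 for Drp2, 1.649 for Epha7, -0.5632 for Gphn, 0.2057 for Nrp1, -1.392 for Pcdh7, -0.4286 for Pnkd, 0.4879 for Rps20 and 0.313 for Sgce. With the mean of all probe sets they were -0.3366 for Cntn1, 0.5425 for Epha7, -0.3311 for Pcdh7 and -0.1932 for Pnkd. Of the listed or named genes, 709 kept direction and side of the threshold without the block, 8 lost and 17 gained a call; 118, 88 and 73 lost it without animal 1, 2 or 3, which leaves fewer samples. Genes at the floor have only bounds.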
